A study of Homo sapiens with 3 samples.

Results

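The regions described here are MATR3 clusters on annotated antisense transcripts, RNAs made from the strand opposite a gene. They were taken as the rows of each deposited cluster table whose annotation class is antisense, with each replicate kept separate. They numbered 1809 of 133088 clusters in replicate 1, 1748 of 131679 in replicate 2 and 1609 of 124040 in replicate 3, or 5166 of 388807 over the 3 tables. The libraries were made by PAR-CLIP, in which crosslinked uridines are read as T-to-C changes, with an antibody against the RNA-binding protein MATR3 (matrin 3). All 3 are biological replicates of untreated wild-type HEK293 cells, a cell line established from human embryonic kidney. There is 1 group and no control library, so comparisons were made within each replicate, against clusters of other classes or against neighbouring sequence.

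MATR3 is an abundant protein of the nuclear matrix with a pair of RNA recognition motifs and a pair of zinc fingers, and it binds pyrimidine-rich RNA, mostly in introns. Antisense transcripts are a group of long non-coding RNAs that begin inside, beyond the end of, or just upstream of a gene and run against its direction. Many are spliced, polyadenylated and retained in the nucleus, and some act on the gene opposite them or on its chromatin, while others host small nucleolar RNAs or microRNAs. The antisense class of older gene catalogues has since been merged into the long non-coding RNA class.

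Sites that recurred in every replicate are shown first, with their sequences. At 30 places an antisense cluster of replicate 1, of replicate 2 and of replicate 3 shared at least 1 nt on the same strand. These involved 30, 29 and 29 distinct clusters and 23 gene names, and the shared stretch had a median length of 30.5 nt, from 7 to 67 nt. Both RP11-1379J22.2 entries below rest on the same clusters of replicates 2 and 3 and differ only in that of replicate 1. The sequences below are the stretches common to all 3 clusters for the 10 leading places, ordered by the lowest of the 3 read counts, from hg38 and in transcript direction. Capitals mark ATCTT, which in RNA reads AUCUU and is a known MATR3 motif, or 1 of the 3 leading 5-mers of the antisense class, given with their ratios further on.
PSMA3-AS1, chr14:58284826-58284874, minus strand: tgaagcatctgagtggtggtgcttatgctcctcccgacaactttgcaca
ZFAS1, chr20:49278804-49278855, plus strand: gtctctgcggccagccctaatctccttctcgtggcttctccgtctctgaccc
SLFNL1-AS1, chr1:41035319-41035369, plus strand: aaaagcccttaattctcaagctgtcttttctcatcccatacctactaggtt
RP11-1379J22.2, chr5:179596184-179596218, minus strand: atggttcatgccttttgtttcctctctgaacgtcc
LINC-PINT, chr7:130951569-130951635, minus strand: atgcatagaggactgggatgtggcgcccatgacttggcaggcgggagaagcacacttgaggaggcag
RP11-1379J22.2, chr5:179596150-179596174, minus strand: agtggttcattcCTTTCtacggctg
DLEU2, chr13:50081380-50081434, minus strand: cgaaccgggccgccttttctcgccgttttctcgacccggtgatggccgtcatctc
RNASEH1-AS1, chr2:3560406-3560439, plus strand: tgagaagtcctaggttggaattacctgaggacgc
AC007773.2, chr19:32400804-32400834, minus strand: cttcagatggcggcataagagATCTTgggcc
FOXD2-AS1, chr1:47433538-47433562, minus strand: gcgcggttgttgagaccaaggcgag

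The PSMA3-AS1 site led by a wide margin. Its clusters held 90, 113 and 108 reads in replicates 1, 2 and 3, with 33, 49 and 37 distinct reads, and 81.1%, 72.6% and 74.0% of the reads carried a T-to-C change. It was also the leading cluster of that gene in all 3 replicates, with 34.0%, 41.2% and 36.2% of the gene's antisense reads. The site lies in an intron of PSMA3-AS1, opposite no protein-coding gene of GENCODE release 44.

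The ZFAS1 site held 36, 45 and 73 reads, all below the PSMA3-AS1 site of the same replicate. ZFAS1 is a host gene of small nucleolar RNAs whose start lies next to that of ZNFX1, and the replicate 1 cluster was centred 404 nt upstream of the ZNFX1 start. The leading SLFNL1-AS1 site held 27, 57 and 39 reads. The LINC-PINT site held 25, 18 and 24 reads, and its shared sequence had 34.3% C and T, against 73.1% in the ZFAS1 stretch, so pyrimidine content varied widely among recurring sites. The DLEU2 site held 40, 75 and 14 reads.

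Of the 30 shared stretches, 2 held ATCTT and 11 held ATCTT or 1 of the 3 leading 5-mers. These 5-mers were ranked in all antisense clusters, the recurring ones among them, so the 11 is only a description. In an exon of a long non-coding gene lay 9 of the stretches, and 20 lay in an intron of one. Opposite a protein-coding exon lay 2, opposite a protein-coding intron 9, and 19 had no protein-coding gene opposite them. Of all antisense clusters, 23.8% lay in such an exon and 71.9% in such a gene outside its exons. A protein-coding gene lay opposite 38.0%, and ATCTT was in 8.90%, 9.10% and 9.01% in replicates 1, 2 and 3. The counts were not tested against these shares, which are of whole clusters. For the 23 stretches of at least 20 nt, the middle 20 nt had 1 exact place each in hg38 for 23 of 23, counting both strands. The median of the lowest read count was 10, so most recurring sites rest on few reads in at least 1 replicate.

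Antisense clusters were small, like clusters elsewhere. They held 21425, 19191 and 18030 reads in replicates 1, 2 and 3, and 7020, 7847 and 5875 distinct reads. The class thus had 1.33% ± 0.031 of all clusters and 1.25% ± 0.065 of all reads (SD, n = 3). The median cluster had 9, 8 and 9 reads, 3 distinct reads in each replicate, and a length of 39, 39 and 36 nt. At most 2 distinct reads supported 41.5%, 32.1% and 43.6% of the clusters. The deepest single cluster had 180, 272 and 218 reads. Total reads in all clusters were 1649124, 1506682 and 1532602, and reads are counted without molecular identifiers.

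The clusters carried 797 gene names, 516, 509 and 475 per replicate. An antisense cluster was present in all 3 replicates for 266 names, in 2 for 171 and in 1 for 360. Names found in all 3 replicates held 86.5% ± 1.64 of the antisense reads (SD, n = 3). The 10 names with most reads held 21.0% ± 2.08 and the 100 with most held 69.6% ± 0.82, while 48.0% ± 1.16 of the names of a replicate had 1 cluster (SD, n = 3). Names ending in -AS numbered 225 and held 42.2% ± 0.72 of the reads, and clone or cDNA names numbered 524 and held 43.0% ± 2.56. Across names found in both replicates of a pair, Spearman's rho of read counts was 0.685 for replicates 1 and 2 (333 names), 0.750 for 1 and 3 (309 names) and 0.699 for 2 and 3 (327 names). These are descriptions across names, which are not independent replicates and share gene length and abundance between libraries.

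The 20 names with the largest geometric mean share of antisense reads are taken by the role of the RNA. SLFNL1-AS1 (chr1:41014590-41043890, plus strand, ENSG00000281207.1) led, with 605, 501 and 675 reads in 34, 36 and 34 clusters, a share of 3.06% ± 0.60 (SD, n = 3). Its end overlaps that of SCMH1, a Polycomb group gene on the minus strand, by 16689 nt, and SCMH1 had 115, 106 and 121 reads. SLFNL1-AS1 was above SCMH1 in each replicate. Some of its recurring sites lay instead downstream of the start of SLFNL1, also on the minus strand, whose reads are not given. In this and all later pairs, reads of an antisense name are those in antisense clusters only. Reads of the opposite gene are those in its clusters of any class, for the gene with the largest overlap.

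Of the 20 names, 3 known hosts of small RNAs are described together, a grouping made after their values were seen. DLEU2 (chr13:49956670-50125720, minus strand, ENSG00000231607.15), the host of miR-15a and miR-16-1 in a region often lost in chronic lymphocytic leukaemia, had 641, 415 and 489 reads in 51, 37 and 39 clusters. It runs across TRIM13, a ubiquitin ligase gene with no cluster in any replicate. ZFAS1 (chr20:49278178-49299600, plus strand) had 299, 317 and 380 reads in 15, 11 and 24 clusters. SNHG7 (chr9:136721366-136728184, minus strand), also a host of small nucleolar RNAs, had 277, 185 and 132 reads in 11, 7 and 8 clusters. Replicate 1 was highest for DLEU2 and SNHG7 and replicate 3 for ZFAS1, so no library was highest throughout.

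LINC-PINT (chr7:130791264-131110176, minus strand), a p53-induced RNA that starts head to head with MKLN1, had 453, 300 and 608 reads in 30, 23 and 40 clusters. Its start overlaps the start of MKLN1 by 81 nt, and MKLN1 had 769, 320 and 654 reads, above the antisense RNA in each replicate. PCBP1-AS1 (chr2:69960104-70103220, minus strand) runs across PCBP1, an intronless gene for a poly(C)-binding protein. PCBP1-AS1 had 651, 483 and 404 reads in 45, 21 and 31 clusters, and PCBP1 had 16, 16 and 18 reads in 1 cluster per replicate. The deepest antisense cluster of the series lay in a PCBP1-AS1 intron at chr2:70078438-70079123 in replicate 2, with 272 reads, 124 distinct reads and 94 conversion locations. In replicate 1 the gene's leading cluster overlapped that one, at chr2:70078564-70078951 with 180 reads. In replicate 3 it lay next to it, at chr2:70079458-70079624 with 48 reads.

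Among antisense RNAs of protein-coding genes, PSMA3-AS1, which overlaps the end of the proteasome subunit gene PSMA3 by 6648 nt, had 265, 274 and 298 reads, and PSMA3 had 168, 83 and 168. PAX8-AS1, which overlaps the gene for the kidney and thyroid transcription factor PAX8 by 60585 nt, had 250, 277 and 202 reads against 0, 7 and 5 for PAX8. MZF1-AS1, which spans the zinc finger gene MZF1, had 291, 253 and 162 reads against 192, 171 and 108. LINC01004 lies within KMT2E, a gene for a SET domain protein, and was the most uneven of the 20. It had 396, 91 and 286 reads against 295, 433 and 261 for KMT2E, so the order within the pair was opposite in replicate 2.

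The other 10 of the 20 had mean shares from 0.890% for ZNRD1-AS1 to 1.89% for SDCBP2-AS1. SDCBP2-AS1, which overlaps the end of the immunophilin gene FKBP1A by 9759 nt, had 636, 272 and 234 reads against 514, 568 and 554. SDCBP2-AS1 was also uneven, with replicate 1 above the others. Its leading cluster in each replicate lay near its own start, away from the FKBP1A overlap. There it was opposite an exon or intron of another protein-coding gene, whose reads are not given. LINC00894 varied little, with 355, 292 and 298 reads in 38, 33 and 28 clusters, and starts head to head with EOLA2. TRAF3IP2-AS1, opposite the gene of an interleukin-17 receptor adaptor, had 255, 310 and 192 reads against 7, 0 and 6. ZBED3-AS1 had 246, 326 and 194 reads against 146, 85 and 155 for the zinc finger gene ZBED3, and did not overlap it in range. TMEM161B-AS1 showed the opposite order, with 128, 235 and 176 reads against 536, 755 and 819 for TMEM161B, a transmembrane protein gene. AC007773.2 had 288, 192 and 224 reads and lies at the place of DPY19L3-DT, and RP11-421L21.3 had 193, 182 and 173 and lies at that of DPH5-DT. ZNRD1-AS1 had 201, 191 and 133 reads against 51, 90 and 87 for POLR1H, an RNA polymerase I subunit gene. Neighbours in this order mostly overlapped across replicates, as in the ranges of 2.16% to 2.99% for DLEU2 and 2.24% to 3.04% for PCBP1-AS1. Per 10 kb of gene length the order changed. CAPN10-AS1 (chr2:240582700-240586699, minus strand), a short gene whose start lies near that of the calpain gene CAPN10, had 685, 770 and 460 reads per 10 kb, the highest of the 20, and SNHG7 had 290 ± 108 (SD, n = 3). LINC-PINT had 14.2 ± 4.83 and TMEM161B-AS1 10.5 ± 3.14, the lowest of the 20. Reads per name were only weakly related to gene length across names, with Spearman's rho of 0.083, 0.092 and 0.087 over 505, 496 and 464 names.

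**Figure D1:**
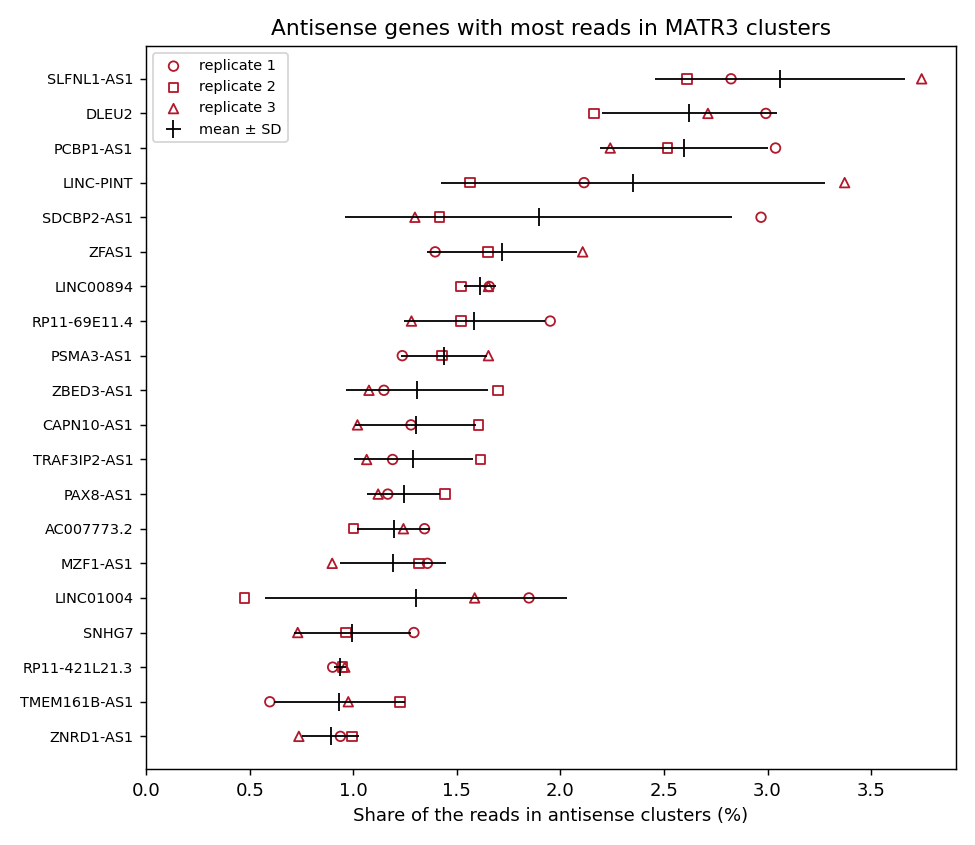
Share of the reads in antisense clusters (x axis, %) held by each of the 20 leading antisense gene names (y axis), with open symbols for replicates 1 to 3 and a black tick and bar for mean ± SD (n = 3). SLFNL1-AS1 lies at 2.61% to 3.74%, and LINC01004 and SDCBP2-AS1 show the widest gaps between replicates relative to their means.

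Lists of known antisense RNAs were looked up by name or older symbol. In the HOX clusters, whose genes set body axis identity, 3 of 12 antisense RNAs were found in the class in every replicate, 2 were found in 1 replicate and 7 were not found. HOTAIRM1 had 36, 87 and 69 reads in replicates 1, 2 and 3, the most of the list in each. HOTTIP, made from an end of the HOXA cluster, had 30, 27 and 48 reads, and HOXA11-AS had 6, 13 and 44. HOTAIR, in the HOXC cluster, had no cluster of any class in the tables. Of 10 antisense RNAs of imprinted loci and X inactivation, 10 of 10 had no antisense cluster under the names searched, and ZNF667-AS1 had 1 cluster of 5 reads in another class, in replicate 1.

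Of 30 widely studied antisense RNAs, 13 were found in the class in every replicate, 3 in 2 replicates, 3 in 1 and 11 were not found. Over all names with any antisense cluster, 266 of 797 had one in all 3, a share that cannot be set beside the lists because it leaves out names without clusters. Members not yet described include NNT-AS1, opposite the mitochondrial transhydrogenase gene, with 115, 101 and 141 reads, and BDNF-AS, opposite the neurotrophin gene BDNF, with 111, 70 and 78. SBF2-AS1 had 129, 63 and 116 reads and FOXP4-AS1 had 76, 158 and 73. OIP5-AS1, a cytoplasmic RNA known as cyrano, had 20, 41 and 23 reads. BACE1-AS, opposite the beta-secretase gene, had 5, 5 and 11 reads, close to the 4 reads below which no cluster is listed. SOX2-OT had 778, 544 and 531 reads, none in the antisense class, since its clusters are classed as sense overlapping.

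Where the clusters lie on their own transcript was read from GENCODE release 44, on hg38. On the same strand 95.7% ± 0.23 overlapped a long non-coding gene. An exon of such a gene held 23.8% ± 1.53, and 71.9% ± 1.75 lay in such a gene outside its exons (SD, n = 3). A protein-coding gene on the same strand was overlapped by 7.02% ± 0.41, where a read cannot be assigned to 1 of the overlapping genes. Of the 60 leading clusters of the 20 leading names, 15 lay in an exon and 42 in an intron. CAPN10-AS1 and TMEM161B-AS1 were exonic, with 8 of 8, 4 of 4 and 9 of 9 clusters and with 8 of 11, 17 of 18 and 11 of 12, while PSMA3-AS1 had 1 of 16, 2 of 16 and 1 of 18 clusters in exons.

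Most antisense clusters were not opposite a protein-coding gene. A protein-coding gene lay on the opposite strand for 676 of 1809, 686 of 1748 and 600 of 1609 clusters, 38.0% ± 1.11 (SD, n = 3). Opposite a protein-coding exon were 13.3% ± 1.69, and opposite an intron 24.7% ± 0.59. For clusters of the intron class the share opposite a protein-coding gene was 2.39% ± 0.034 and for lincRNA clusters 6.07% ± 0.54. These follow from the class definition and are given without a test. Within 1000 nt of the start of an opposite protein-coding gene lay 10.1% ± 0.84 of antisense clusters, 6.86% ± 0.60 upstream of that start and 3.22% ± 0.28 downstream. Within 10000 nt the shares were 36.7% ± 3.16 upstream and 12.6% ± 0.34 downstream, and the upstream share was the higher in each replicate.

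**Figure D2:**
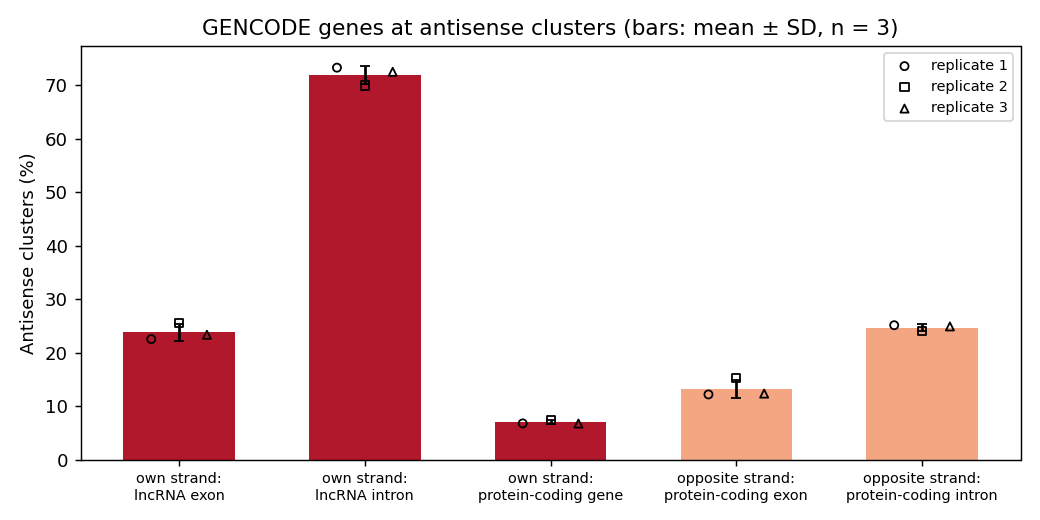
Share of antisense clusters (y axis, %) that overlap each kind of GENCODE feature on their own strand (dark bars) and on the opposite strand (light bars), as mean ± SD with symbols for the 3 replicates. The share outside exons of long non-coding genes, 71.9%, is about as high in each replicate, and features can overlap, so the bars do not add up to 100%.

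Each name was set on a GENCODE gene, 227 by name, 44 by an older symbol and 509 by place on the same strand, which left 17 names without one. Of the 266 names in all 3 replicates, 80 overlapped the end of a protein-coding gene tail to tail and held 27.2% ± 0.67 of the antisense reads. Head to head with a protein-coding gene were 75 names with 24.7% ± 2.0, and 35 that ran across a whole gene held 15.8% ± 1.86. A further 41 lay within the opposite gene and held 10.03% ± 0.70, and 17 had no overlap but a start within 1000 nt of the other gene's start (SD, n = 3). No single arrangement held most of the reads.

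Along the transcript, antisense clusters were densest near the start. Of the gene's length, the first 10% held 21.9%, 23.0% and 22.9% of the clusters that could be placed, and the last 10% held 4.39%, 4.03% and 4.15%. Placed clusters made up 95.6% ± 0.33. The same stretch at the start held 16.4% ± 0.46 of intron clusters, along protein-coding genes, and 20.6% ± 0.84 of lincRNA clusters. The excess over introns was 6.23 percentage points ± 0.23 and over lincRNA clusters 1.99 ± 0.96, both positive in every replicate and wider than 1 SD (exact two-sided sign-flip test, p = 0.25 for both, which is as low as 3 replicates can give). The excess over lincRNA clusters was 0.722 when only clusters with at least 3 distinct reads were used. The intron class leaves out exons, first exons among them. The antisense class joins introns and exons, with 23.8% of its clusters in an exon of a long non-coding gene, and the lincRNA class joins both too. The comparison with introns is therefore between unlike sets, and the part of exons in it was not tested. In all, 19 comparisons of this kind were tested, and 13 kept 1 sign in all 3 replicates. Among these, the sign of 2 on opposite-strand overlap is favoured by the class definition. That of ATCTT against flanking sequence, given further on, is favoured by the T-to-C readout. The lowest Benjamini-Hochberg adjusted p of the sign-flip tests was 0.365, so none passes 0.05. The comparison along the gene was added after the data were seen.

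**Figure D3:**
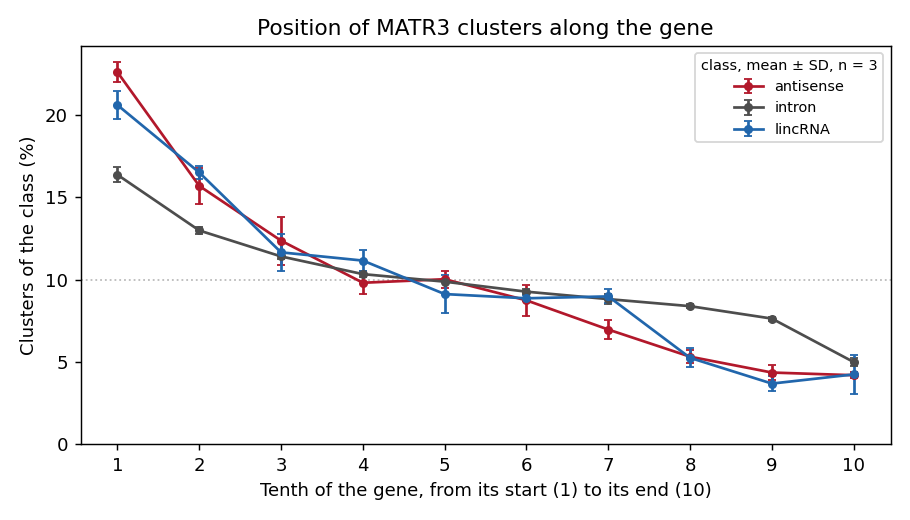
Share of the clusters of each class (y axis, %) in each 10% of the gene from its start to its end (x axis), as mean ± SD over 3 replicates, with a dotted line where an even spread would lie. Antisense clusters fall from 22.6% in the first bin to 4.19% in the last, and intron clusters, which leave out exons, from 16.4% to 4.99%.

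Genes opposite the antisense names often carried clusters of their own. In replicates 1, 2 and 3, 313 of 468, 305 of 460 and 269 of 434 opposite protein-coding genes had a cluster, or 66.9%, 66.3% and 62.0%. Over all protein-coding genes the share was 49.3%, 49.6% and 48.8%. Of 244 genes opposite a name found in all 3 replicates, 133 had a cluster in all 3, or 54.5%, against 41.8% of all protein-coding genes. Gene length and abundance were not matched in these shares. Read counts within pairs had little relation, with Spearman's rho of -0.055, 0.032 and 0.048 over 320, 312 and 272 names where both had reads. Of 248 pairs with a name in all 3 replicates, the antisense name had more reads than its opposite gene in all 3 for 120 and fewer in all 3 for 80, and in 63 pairs the opposite gene had no cluster in any replicate. Antisense names without a cluster were not among these pairs, so the counts in the 2 directions are not taken over like sets. Reads of a name were those in antisense clusters only, and those of its opposite gene were in clusters of any class. Names with clusters in other classes, such as LRRC75A-AS1, were thus undercounted, and further genes opposite a name were left out.

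**Figure D4:**
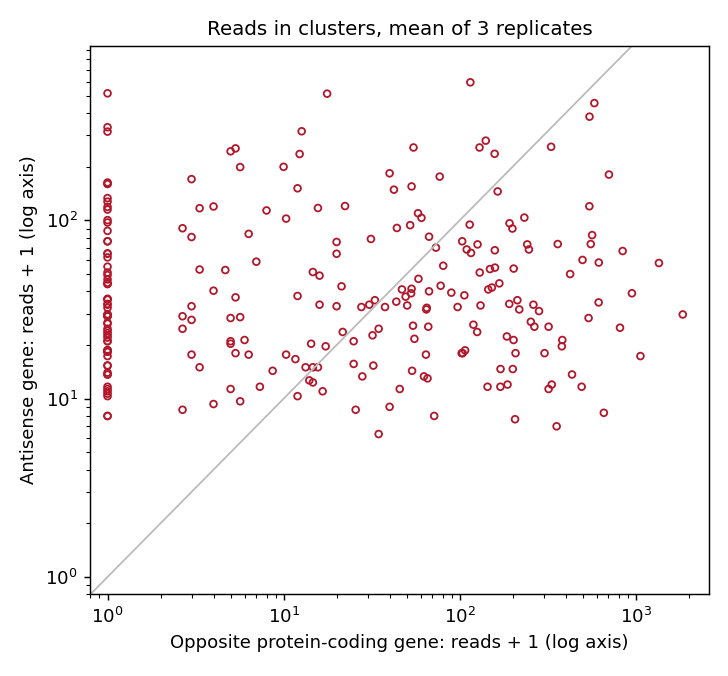
Mean reads plus 1 over 3 replicates for an antisense gene (y axis, log scale) and the protein-coding gene opposite it (x axis, log scale). There is 1 point for each of 248 pairs, with a line where both are equal. Antisense genes are counted in antisense clusters only, and opposite genes in clusters of any class. Points at the left edge are the 63 pairs whose opposite gene had no cluster. In single replicates Spearman's rho was from -0.055 to 0.048. It was taken over names where both had reads, a set unlike the pairs drawn here.

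Both strands were rarely bound at the same position. A cluster on the opposite strand overlapped 3, 6 and 5 antisense clusters in replicates 1, 2 and 3, or 0.166%, 0.343% and 0.311%, against 0.0616%, 0.117% and 0.0661% of all clusters. The share was 0.029% ± 0.0097 in introns and 0.017% ± 0.029 in lincRNA clusters (SD, n = 3). The class is defined by lying opposite genes, and 38.0% of its clusters were opposite a protein-coding gene against 2.39% and 6.07%, so these shares are a description and nothing is read from their order. The 14 clusters had 14 different names, 5 to 34 reads and overlaps of 5 to 37 nt. The longest overlap was in SNHG7, where a cluster of 34 reads at chr9:136723461-136723564 covered one of 5 reads at the stop codon of the gene the files call FAM69B. In PRRT3-AS1 a cluster of 7 reads lay over 33 nt of one of 5 reads in PRRT3 coding sequence. Within 1000 nt, an opposite-strand cluster was found for 86, 101 and 86 antisense clusters, or 4.75%, 5.78% and 5.34%, against 1.26%, 1.47% and 1.28% of all clusters, which is likewise a description.

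The share of antisense clusters found again in another replicate was below that of intron clusters in each replicate. A cluster of any class in another replicate overlapped 319 of 1809, 314 of 1748 and 318 of 1609 antisense clusters, or 17.6%, 18.0% and 19.8%. For all clusters this was 20.8%, 20.8% and 22.0%. The antisense share minus that of introns was -3.60, -3.02 and -2.61 percentage points in replicates 1, 2 and 3, with a mean of -3.08 ± 0.49, and differed from that of lincRNA clusters by -3.14 ± 0.92 (SD, n = 3; sign-flip permutation p = 0.25 for both). Both exceeded the spread between replicates. When at least 50% of both clusters had to overlap, the differences were -1.40 ± 0.66 and -1.17 ± 1.18, the second within its spread. Among clusters with at least the median read count they were -2.01 ± 1.07 and -3.73 ± 1.24, and with at least 3 distinct reads -2.04 ± 1.26 and -4.23 ± 1.58. Overlap with both other replicates was found for 38, 38 and 33 antisense clusters, or 2.10%, 2.17% and 2.05%, against 2.42%, 2.55% and 2.52% of all clusters. Abundance of the transcripts was not measured here, and its part in these shares was not tested.

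The T-to-C signal on antisense transcripts was as high as on introns or higher. Per T position, conversion was 11.3%, 11.6% and 12.0% in antisense clusters, 10.5%, 11.1% and 11.2% in introns and 11.3%, 11.6% and 12.0% in lincRNA clusters. The excess over introns was 0.700 percentage points ± 0.19 and positive in every replicate (SD, n = 3; sign-flip permutation p = 0.25), and it was 0.389 among clusters with at least 3 distinct reads. From lincRNA clusters the antisense class differed by -0.013 ± 0.021, within the spread (sign-flip permutation p = 0.50). That difference was -0.120 ± 0.057 among clusters with at least the median read count and -0.102 ± 0.090 among those with at least 3 distinct reads, below 0 in every replicate under both filters (sign-flip permutation p = 0.25). Clusters of the antisense class also held fewer T, 30.2% ± 1.02 of bases against 31.9% ± 0.88 in introns, a difference of -1.76 percentage points ± 0.17 with the same sign throughout (SD, n = 3; sign-flip permutation p = 0.25). Its part in the conversion rate was not tested. A T-to-C change was carried by 88.0% ± 1.36 of the reads and by 87.5% ± 0.62 in introns, a difference of 0.520 ± 0.74 that was within the spread and below 0 in replicate 2 (sign-flip permutation p = 0.50). Against lincRNA clusters the difference was 1.79 ± 0.81 and positive in every replicate. As a median over clusters, the share of reads with a T-to-C change differed by 0 from introns and by 0 from lincRNA clusters. The median reads per cluster were equal in the 3 classes, and the median length differed by at most 1 nt in any replicate.

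**Figure D5:**
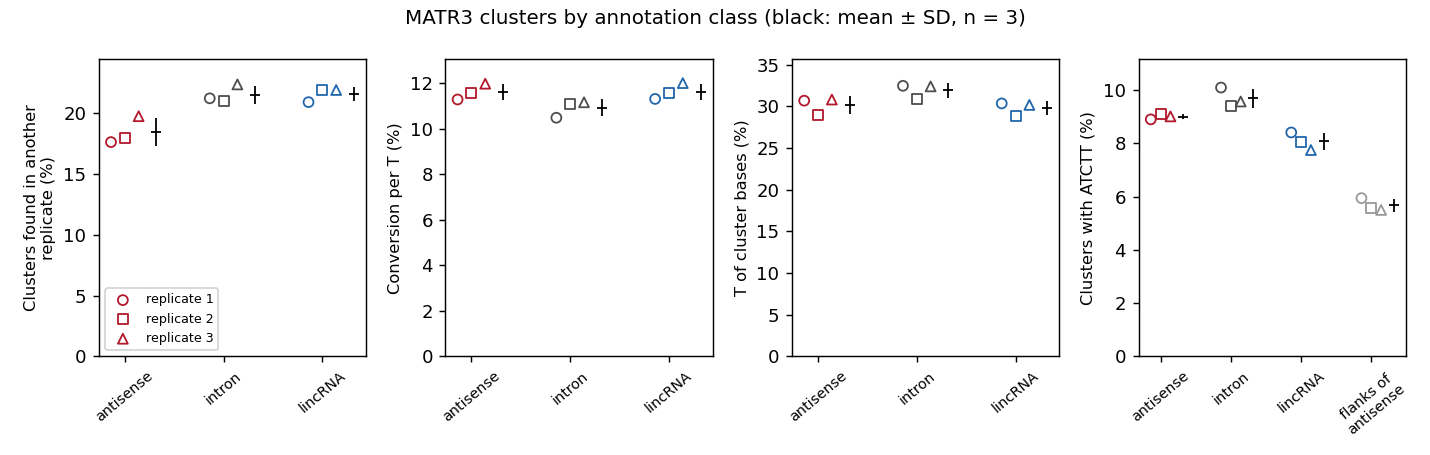
Values of antisense, intron and lincRNA clusters in replicates 1 to 3 (open symbols) with mean ± SD (black), from left to right as the share found in another replicate, conversion per T, T of all cluster bases and the share holding ATCTT, each on a y axis in % that starts at 0. The last panel adds sequence 200 nt to each side of antisense clusters, at 5.67%, below the 9.0% in the clusters.

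The sequences of antisense clusters were richer in pyrimidines than their surroundings. C made up 27.3% ± 0.014 of cluster bases and 24.8% ± 0.31 of windows as long as the cluster, set 200 nt away on either side, and T made up 30.2% ± 1.02 and 28.9% ± 0.42. A fell short, with 20.6% ± 0.29 in clusters and 23.9% ± 0.14 beside them (SD, n = 3). PAR-CLIP sites are read from T-to-C changes, so clusters are favoured to hold T and flanking windows are not. An excess of T, or of a motif with T, over the flanks is thus favoured by the method. The part of the method in these differences was not tested. ATCTT, searched on the transcript strand, was present in 161 of 1809, 159 of 1748 and 145 of 1609 clusters, or 8.90%, 9.10% and 9.01%, and in 9.63%, 8.89% and 9.11% of all clusters. It was present in 5.94%, 5.58% and 5.50% of the flanking windows. The difference from the flanks was 3.33 percentage points ± 0.32, positive in every replicate and wider than the spread (SD, n = 3; sign-flip permutation p = 0.25). The share differed from that of introns by -0.684 points ± 0.46 and from that of lincRNA clusters by 0.930 ± 0.40, each with 1 sign throughout.

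Over all 1024 5-mers, the number of antisense clusters with a 5-mer was divided by the number of flanking windows with it, averaged over the sides, after adding 1 to both. TCTTC led with a log2 ratio of 1.04 ± 0.21, in 276, 280 and 290 clusters, followed by CTCTT with a log2 ratio of 0.91 ± 0.20 and CTTTC with one of 0.86 ± 0.08 (SD, n = 3). Of the 10 leading 5-mers, 6 consisted of C and T alone, as did 32 of all 1024. ATCTT ranked 18 with 0.66 ± 0.07. Several of the leading 5-mers overlap in sequence, so the ratios are not independent and are given as a description. Ratios of 5-mers with T are also favoured by the T-to-C readout.

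The clusters below show how ATCTT (capitals) sits in single sites. They are 5 of the 6 deepest clusters of at most 60 nt that hold it, 1 for each gene name and from the replicate named. The other, in TUG1 in replicate 1, had 23 reads and 8 distinct reads, overlapped no long non-coding gene of GENCODE release 44, where TUG1 is typed as protein-coding, and is not printed.
RP11-692D12.1, chr4:73260373-73260410, plus strand, replicate 2: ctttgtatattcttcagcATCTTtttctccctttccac
CTD-2152M20.2, chr5:32115857-32115913, minus strand, replicate 1: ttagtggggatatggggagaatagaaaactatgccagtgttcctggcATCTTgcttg
RP4-728D4.2, chr1:35569990-35570033, minus strand, replicate 1: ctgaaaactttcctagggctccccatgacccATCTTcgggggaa
SBF2-AS1, chr11:9767210-9767261, plus strand, replicate 1: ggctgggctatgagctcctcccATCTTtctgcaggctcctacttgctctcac
RP11-506M12.1, chr7:100124830-100124885, minus strand, replicate 3: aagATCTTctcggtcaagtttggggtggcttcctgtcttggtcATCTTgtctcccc

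The RP11-692D12.1 cluster had 33 reads, 12 distinct reads and a T-to-C change in 63.6% of reads, and its motif stood in a run of C and T. The CTD-2152M20.2 cluster had 30 reads and 8 distinct reads, with the motif in a mixed sequence. The RP11-506M12.1 cluster held the motif at both ends, with 23 reads from 4 distinct reads, a T-to-C change in each read, and a protein-coding exon on the opposite strand. The other 4 printed clusters lay in introns of long non-coding genes with no protein-coding gene opposite them.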

How the data were processed

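PAR-CLIP clusters of 3 biological replicates were deposited as 1 table per replicate. Per the file headers, the authors give whole counts of reads, distinct reads, conversion locations and conversion events per cluster, not normalised. For each cluster the authors also give T-to-C reads as a fraction from 0 to 1. A specificity score deposited as log10 entered no comparison. The build is hg38 per the submitters' processing notes; aligner, cluster caller and annotation release are not given in the sources used here. The sequences of 1809 of 1809, 1748 of 1748 and 1609 of 1609 antisense clusters equalled hg38 at the deposited coordinates.

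The tables list clusters of each replicate separately, and those with fewer than 4 reads are not listed. Shares carry the spread over 3 libraries, and depth of the whole libraries is not known here. A cluster counted as found where at least 1 nt overlapped on the same strand. Conversion per T was the share of converted events among converted and unconverted ones, with events added up within a class. The lincRNA class joins lincRNA introns and exons. Class differences were tested within replicates with an exact two-sided sign-flip permutation test (scipy 1.17.1), adjusted with Benjamini-Hochberg over 19 tests. Overlap and test code was tested on simulated data. An opposite gene was the protein-coding gene of GENCODE release 44 with the largest overlap, or the nearest start within 1000 nt, leaving out genes without a symbol where another was present. Its reads were added up over clusters of any class, and those of the antisense name over antisense clusters only. Position along a gene used the longest gene of the class's type around the cluster's midpoint.

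Named genes were the 20 names with the largest geometric mean share of antisense reads among names in all 3 replicates, the 10 leading recurring sites, and members of 3 lists. Other genes and 5-mers were chosen after their values were seen. The members and lists were chosen with earlier results of these data known. Alternatives were stricter cluster sets, another overlap, other flanks, medians and leaving out each replicate.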

Additional observations from a re-analysis of the deposited data

Results flagged for a closer look

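Clusters with an antisense gene name but another annotation class entered none of the comparisons. They held 1140 reads on average per replicate, with 1001, 1429 and 989 reads in 73, 81 and 80 clusters of replicates 1, 2 and 3, and are listed since they exceed 3 reads, the limit set by a count of 0. Every listed cluster has at least 4 reads, so passing that limit does not set them apart. LRRC75A-AS1, the host of small nucleolar RNAs also called SNHG29, supplied most of them, with 581, 1014 and 604 reads in 29, 40 and 40 lincRNA intron clusters. RP11-66N24.4 had 177, 163 and 170 reads in 18, 19 and 20 clusters classed as retained intron. Groups of 3 libraries are too small for a test of single outlying samples.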

How the results depend on the processing

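Over 21 results, 120 values were recomputed. Of these, 110 were counted as kept, by direction, by the spread or by lying within 1.5 times the reported count. A value of 0 has no direction but was also counted as kept, so the 110 overstates stability. Median reads per cluster differed by 0 in the main setting and in each alternative. For converted reads, cluster medians differed by 0 from introns and lincRNA clusters, in place of 0.520 and 1.79 percentage points. Without replicate 1, median length differed by 0 from lincRNA clusters, in place of 0.333 nt. The position result and its alternatives were chosen after seeing the data. As a median over clusters, conversion per T differed between antisense and lincRNA clusters by 0.133 percentage points in place of -0.013, and the median length differed by -1 nt when clusters under the median read count were left out and by -1 nt when those under 3 distinct reads were, in place of 0.333 nt; the main differences were within the spread and the cause was not tested. The share of the class was 1.25% of reads, 1.22% of distinct reads, and 1.25% of clusters under either of these filters, in place of 1.33%. Names with antisense clusters in all 3 replicates numbered 163 under the filter on reads, 168 under the filter on distinct reads and 157 where each name needed 2 clusters, in place of 266; these use fewer clusters by construction. Without 1 replicate, the difference in the share found again lay between -2.01 and -1.30 points for introns and between -2.48 and -1.30 for lincRNA clusters, since 1 library fewer was searched. With 3 replicates no sign-flip test can pass 0.05, so these tests say nothing about stability. Depth per cluster was low, with a median of 3 distinct reads. Class differences were paired by replicate. A replicate block between groups could not be fitted, since the samples form 1 group.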
